A study of Mus musculus with 18 samples.

Results

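A set of 7 genes of antigen presentation by MHC class II were followed in the mouse heart. They are H2-Aa, H2-Ab1 and H2-Eb1 (chains of the class II molecules themselves), Cd74 (the invariant chain), H2-DMa and H2-DMb1 (the peptide exchange factor H2-DM) and Ciita (the class II transactivator). The members were the probe sets whose platform gene symbol was one of these 7 names, and where a gene had several, a single set was selected on its mean signal over all 18 arrays, taking the brightest. That mean level was the only measured value in the rule for picking probe sets, and differences between groups did not enter it. The list of genes itself was chosen with earlier results of these data known. The shares of all genes given beside the member counts are therefore descriptions and no test of the set. Of 18193 genes with a probe set of their own, 6 were members. Among the 10916 genes that passed the filter on low signal, 5 were members, because Ciita lay under the filter and both probe sets that name H2-DMb1 also name its neighbour H2-DMb2.

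RNA of ventricular myocardium was hybridised to Affymetrix oligonucleotide arrays, with 1 array for each sample. Leptin treated ob/ob mice (n = 5) received leptin from osmotic mini-pumps for 1 month from the age of 6 months. Calorie restricted ob/ob mice (n = 5) were given, over the same month, as much food as the leptin treated animals ate. Ad libitum ob/ob mice (n = 4) went on eating freely for that month. All 3 of these groups lack functional leptin of their own through the ob mutation and are on a C57Bl/6J background. Wild type C57Bl/6J mice (n = 4) served as controls, and the design text gives their age as 6 to 8 months. All mice were killed between 7 and 8 AM. Leptin lowers food intake, so the leptin treated and calorie restricted groups were matched in the amount eaten. They differed in leptin treatment and in how intake was lowered, by leptin or by a ration, so the contrast does not isolate leptin. The comparison with wild type mice differs in genotype and partly in age.

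MHC class II molecules carry peptides of proteins taken up from outside the cell to the surface, where CD4+ T cells read them. The alpha and beta chains pair in the endoplasmic reticulum around the invariant chain, which blocks the groove and steers the complex to endosomes. There, cathepsins cut the invariant chain down to a short remnant, and H2-DM exchanges that remnant for peptide. Dendritic cells, B cells and macrophages are the main cells with class II, and the heart holds resident macrophages and dendritic cells. Transcription depends on the coactivator Ciita, which binds no DNA itself and joins the RFX, CREB and NF-Y factors on the conserved X and Y boxes of class II promoters. Ciita in turn is induced by interferon gamma.

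The arrays were alike in overall signal, with medians of 22.3 to 31.8 and 75th percentiles of 93.0 to 101 in MAS5 units, each array having been scaled by the authors to a trimmed mean of 100.001. Ventricular markers were not called different in any comparison in a list of 10 cardiomyocyte genes, with medians of log2 differences of -0.06 to 0.26. All 10 were nonetheless higher on average in each ob/ob group than in wild type hearts. For calorie restricted against wild type hearts 8 of the 10 had an unadjusted limma p under 0.05, as had 28.3% of all genes. Atrial transcripts stood apart on 2 arrays. Myl7, the atrial light chain, had signals of 3448 and 3548 on calorie restricted arrays 2 and 3, against 3.58 to 635 on the other calorie restricted arrays, and 2.52 to 674 elsewhere. Each count of members was therefore also taken without these 2 arrays and with atrial signal as a covariate, and none of the 6 counts changed under either. A log2 difference is the first named group minus the second on the scale log2(signal + 5.13), which understates the change of low signals. Calls were made at a limma adjusted p under 0.05 over the 10916 genes. In RNA of whole tissue, fewer cells of a type and less RNA per cell cannot be told apart.

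H2-Aa encodes the alpha chain of I-A, the class II molecule of C57Bl/6 mice. Its signal was 1077, 1152, 1078, 690 and 1139 in leptin treated ob/ob hearts, 104, 182, 115, 86.9 and 101 in calorie restricted ob/ob hearts, 648, 325, 417 and 467 in ad libitum ob/ob hearts, and 734, 1008, 783 and 1354 in wild type hearts. The highest calorie restricted array was below the lowest array of each other group. The ad libitum arrays lay in a band of their own between the calorie restricted arrays and all others, below every leptin treated and every wild type array. The means were 1027 ± 191 in leptin treated hearts, 118 ± 37.5 in calorie restricted hearts, 464 ± 136 in ad libitum hearts and 970 ± 283 in wild type hearts (SD, n = 5, 5, 4 and 4). Between the intake-matched groups the log2 difference was 3.09 ± 0.22 (SE), 8.54-fold in favour of leptin, with a limma adjusted p of 2.64e-07. H2-Aa fell by 1.94 ± 0.23 on the log2 scale in calorie restricted hearts against ad libitum hearts (adjusted p = 8.57e-05, limma), and rose by 1.16 ± 0.23 in leptin treated hearts against ad libitum hearts (adjusted p = 0.0212, limma).

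H2-Ab1 encodes the beta chain that pairs with H2-Aa. Signals were 320, 361, 244, 247 and 235 in leptin treated hearts, 87.0, 108, 82.6, 56.6 and 78.9 in calorie restricted hearts, 193, 110, 249 and 219 in ad libitum hearts, and 230, 240, 246 and 357 in wild type hearts. All calorie restricted arrays were again below all arrays of the other groups, although the lowest ad libitum array came within 2 units of the highest calorie restricted array. H2-Ab1 was higher in leptin treated than in calorie restricted hearts by 1.71 ± 0.20 on the log2 scale (adjusted p = 3.25e-05, limma). It fell by 1.14 ± 0.22 in calorie restricted against ad libitum hearts (adjusted p = 0.00354, limma). The leptin treated and ad libitum groups overlapped, and their log2 difference of 0.58 did not pass (adjusted p = 0.205, limma).

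H2-Eb1 encodes the beta chain of I-E, the second class II molecule of the mouse. Its signals were 508, 496, 511, 320 and 587 in leptin treated hearts, 115, 170, 117, 102 and 93.4 in calorie restricted hearts, 267, 218, 195 and 213 in ad libitum hearts, and 292, 513, 385 and 611 in wild type hearts. The order of the groups was that of H2-Aa, with no overlap between calorie restricted and ad libitum arrays, or between ad libitum arrays and those of the leptin treated and wild type groups. The log2 difference was 1.97 ± 0.20 for leptin against calorie restriction (adjusted p = 6.06e-06), -0.89 ± 0.21 for calorie restriction against ad libitum feeding (adjusted p = 0.0136) and 1.08 ± 0.21 for leptin against ad libitum feeding (adjusted p = 0.0174), all by limma. H2-Ea, the alpha chain partner of H2-Eb1, is not transcribed in mice of the b haplotype such as C57Bl/6. Its probe set had means of 17.9 ± 3.8 in leptin treated, 19.8 ± 2.8 in calorie restricted, 24.4 ± 4.9 in ad libitum and 23.1 ± 7.1 in wild type hearts (SD), under the filter, and did not follow the pattern of H2-Eb1.

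Cd74 encodes the invariant chain. Signals were 790, 749, 691, 421 and 666 in leptin treated hearts, 149, 233, 131, 114 and 107 in calorie restricted hearts, 441, 275, 357 and 410 in ad libitum hearts, and 538, 776, 545 and 1012 in wild type hearts. Calorie restricted arrays were the lowest throughout, and a single leptin treated array, replicate 4, lay among the ad libitum arrays. Leptin treated hearts exceeded calorie restricted hearts by 2.16 ± 0.23 on the log2 scale (adjusted p = 9.55e-06, limma). Cd74 fell by 1.34 ± 0.24 in calorie restricted against ad libitum hearts (adjusted p = 0.00221, limma). Against ad libitum hearts the leptin treated value of 0.82 ± 0.24 missed the threshold (adjusted p = 0.102, limma). Without leptin replicate 4 it was 0.97 with an adjusted p of 0.0472.

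**Figure D1:**
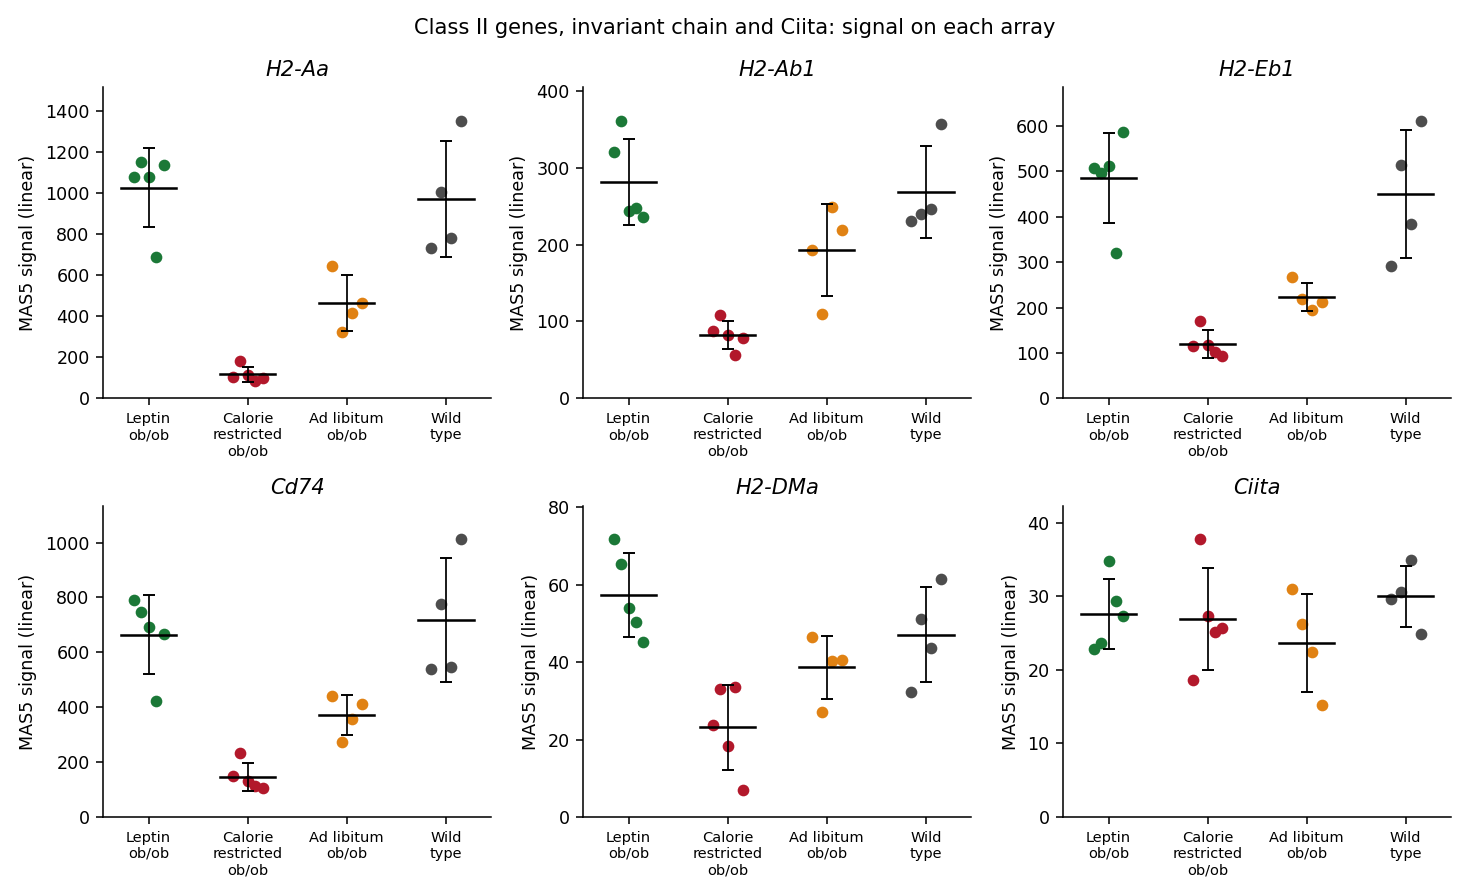
Signal of each member's probe set (MAS5 units, linear vertical axis from 0) on each of the 18 arrays, by group from leptin treated and calorie restricted to ad libitum ob/ob and wild type. Points are arrays in replicate order, long bars are group means and error bars are SDs. For H2-Aa the calorie restricted points lie between 86.9 and 182 and all others at 325 or above, while the groups overlap for Ciita.

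H2-DMa encodes the alpha chain of H2-DM, the exchange factor. It was much dimmer, just above the filter, with 71.8, 65.3, 54.0, 50.5 and 45.1 in leptin treated hearts, 23.7, 33.1, 18.3, 33.6 and 7.05 in calorie restricted hearts, 46.6, 27.2, 40.3 and 40.6 in ad libitum hearts, and 32.3, 51.1, 43.8 and 61.5 in wild type hearts. Only the leptin treated and calorie restricted arrays were fully apart. H2-DMa was 1.24 ± 0.26 higher in leptin treated than in calorie restricted hearts on the log2 scale (adjusted p = 0.00302, limma). Its log2 difference of -0.73 ± 0.27 in calorie restricted against ad libitum hearts did not pass (adjusted p = 0.12, limma). Against wild type hearts it fell by 0.97 ± 0.27 (adjusted p = 0.0227, limma), although those groups overlapped and the call was lost without wild type replicate 2 (adjusted p = 0.0625) or without wild type replicate 4 (adjusted p = 0.0743). The second H2-DMa probe set was below the filter, with means of 15.9 in leptin treated, 18.4 in calorie restricted, 6.83 in ad libitum and 8.18 in wild type hearts, and so did not show calorie restricted hearts as the lowest.

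The beta chain of H2-DM could be read only together with H2-DMb2. The brighter of the shared probe sets averaged 18.3 ± 1.53 in leptin treated, 10.5 ± 4.55 in calorie restricted, 14.4 ± 5.11 in ad libitum and 18.9 ± 3.04 in wild type hearts (SD). The other averaged 12.4 ± 4.69, 9.25 ± 2.07, 15.1 ± 6.45 and 13.01 ± 5.47 in the same order of groups. Neither passed in any of the 6 comparisons, the smallest adjusted p being 0.0709 for the brighter set in leptin against calorie restriction (limma over all annotated probe sets without the level filter). Calorie restricted hearts had the lowest mean on both sets.

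Ciita, the coactivator, did not pass in any comparison. Its brightest probe set gave 22.8, 23.7, 34.7, 29.4 and 27.2 in leptin treated hearts, 18.6, 37.7, 27.3, 25.1 and 25.6 in calorie restricted hearts, 31.0, 26.2, 22.4 and 15.2 in ad libitum hearts, and 29.6, 30.5, 34.98 and 24.9 in wild type hearts. All pairs of groups overlapped. The means were 27.6 ± 4.81 in leptin treated, 26.9 ± 6.91 in calorie restricted, 23.7 ± 6.66 in ad libitum and 29.98 ± 4.14 in wild type hearts (SD). In the fit without the level filter, the log2 difference for leptin against calorie restriction was 0.04, with a 95% interval of -0.31 to 0.40. That interval does not reach the difference of any of the 5 other measured members. At a mean of 4.99 on the log2 scale Ciita lay just outside the filter at 5.18, and H2-DMa, at 5.43, just inside. No detection call was used, so at this level signal from transcript and from background cannot be told apart. The other 2 Ciita probe sets were dimmer still, with group means of 11.7 to 15.7 and of 3.65 to 5.50.

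In leptin treated against calorie restricted hearts all 5 tested members rose, against a background of 10.4% of all tested genes called higher, and all 5 were higher on every leptin treated array than on every calorie restricted array, where 7.47% of all genes were. The members' log2 differences ran from 1.24 to 3.09 with a median of 1.97, while the median of all genes was -0.01. In calorie restricted against ad libitum hearts 4 of the 5 fell, all but H2-DMa, against 4.42% of all genes called lower, and the same 4 did not overlap, where 5.75% of all genes were lower without overlap. Their median over the 5 was -1.14.

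In leptin treated against ad libitum hearts, H2-Aa and H2-Eb1 rose, against 0.632% of all genes called higher. These were also the members whose groups did not overlap, where 3.2% of all genes were higher without overlap, and the median of the 5 was 0.82. These 2 calls were close to the threshold. Both were lost without ad libitum replicate 2, where the adjusted p was 0.0775 for H2-Aa and 0.0558 for H2-Eb1, and without ad libitum replicate 3, where it was 0.0711 for H2-Aa and 0.0635 for H2-Eb1. Without leptin replicate 2 the call of H2-Aa was lost (limma adjusted p = 0.0679) and that of H2-Eb1 was kept.

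In ad libitum ob/ob against wild type hearts no member was called by limma, while 0.376% of all genes were called. An unadjusted p under 0.05 was found for 4 of the 5 members and for 11.5% of all genes. The log2 differences were -1.06 ± 0.24 for H2-Aa (adjusted p = 0.0706), -0.51 ± 0.23 for H2-Ab1 (adjusted p = 0.403), -0.95 ± 0.22 for H2-Eb1 (adjusted p = 0.0706), -0.91 ± 0.25 for Cd74 (adjusted p = 0.122) and -0.24 ± 0.29 for H2-DMa (adjusted p = 0.801), all by limma. The 3 largest, H2-Aa, H2-Eb1 and Cd74, were lower on every ad libitum array than on every wild type array, where 3.79% of all genes were. Single arrays decided the call for H2-Aa and H2-Eb1. H2-Aa passed without ad libitum replicate 1 (limma adjusted p = 0.0429) or calorie restricted replicate 2 (0.0454), and H2-Eb1 passed without wild type replicate 1 (0.0398) or leptin replicate 4 (0.0453).

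In leptin treated against wild type hearts no member was called by limma and none had an unadjusted p under 0.05, while 0.0183% of all genes were called. The differences were 0.10 for H2-Aa (95% interval -0.39 to 0.59), 0.07 for H2-Ab1 (-0.39 to 0.53), 0.13 for H2-Eb1 (-0.31 to 0.57), -0.09 for Cd74 (-0.60 to 0.41) and 0.27 for H2-DMa (-0.30 to 0.84). A p above the threshold does not show equal levels, and the bounds of these intervals give the differences the arrays leave possible. In calorie restricted against wild type hearts all 5 fell, against 8.2% of all genes called lower, and 4 did not overlap, where 7.93% of all genes were lower without overlap. The log2 differences were -2.99 ± 0.23 for H2-Aa, -1.64 ± 0.22 for H2-Ab1, -1.84 ± 0.21 for H2-Eb1 and -2.26 ± 0.24 for Cd74, with limma adjusted p-values of 5.81e-07, 1.21e-04, 2.83e-05 and 1.44e-05. The 6 comparisons share groups, so their values for a gene are not independent of each other.

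**Figure D2:**
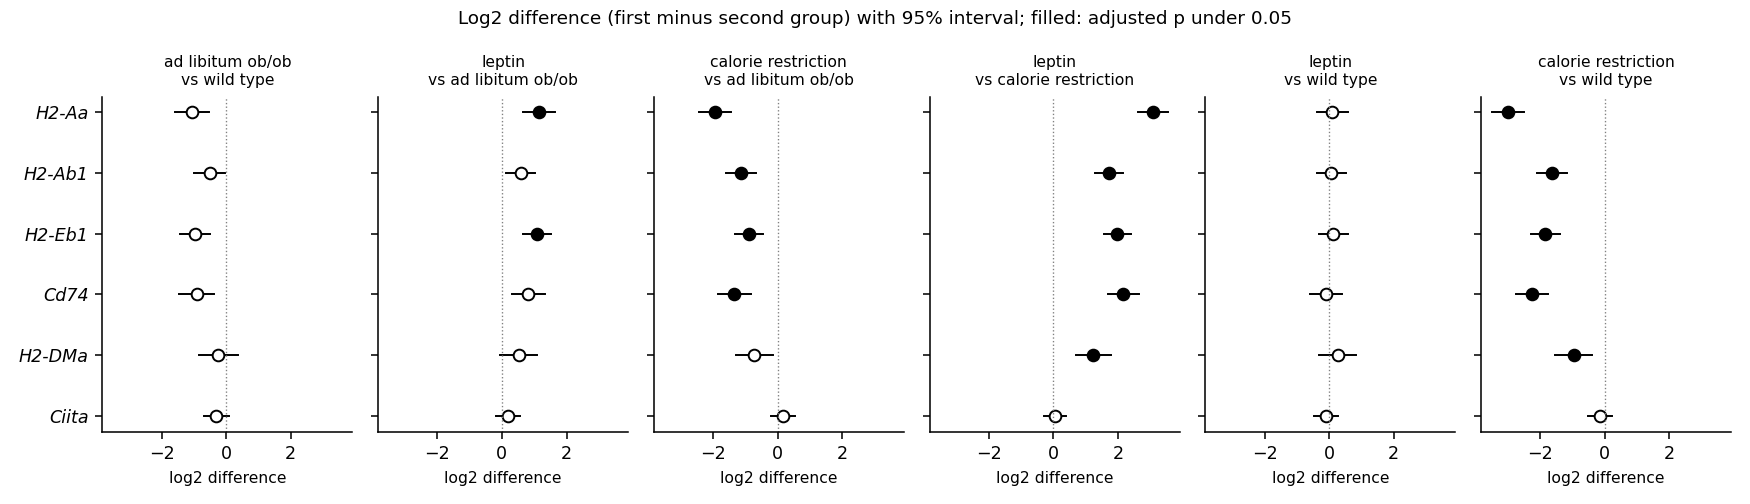
Log2 difference of each member, first named group minus second, in the 6 comparisons, with 95% intervals (horizontal axis in log2 units, genes down the vertical axis). Filled points passed an adjusted p of 0.05, and Ciita comes from the fit without the level filter. The points for H2-Aa lie at 3.09 for leptin against calorie restriction and at -1.94 for calorie restriction against ad libitum feeding, and every interval for leptin against wild type crosses 0.

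The differences were as large without the 2 calorie restricted arrays that were high in atrial transcripts. Without them, H2-Aa differed by 3.32 between leptin and calorie restriction (adjusted p = 1.88e-06), Cd74 by 2.36 (3.73e-05), H2-Eb1 by 2.15 (3.93e-05), H2-Ab1 by 1.85 (2.31e-04) and H2-DMa by 1.37 (0.00789), all by limma. All 5 values were larger than with the 2 arrays included. Calorie restricted replicate 2 was the highest of its group for 4 of the 5 members.

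The genes of the molecule are represented by several probe sets, which hold different probes for the same transcript. The platform gave 14 sets to a single member and 2 to H2-DMb1 with H2-DMb2. Of these 14, 9 passed the level filter in a fit over 18060 probe sets. All 9 rose in leptin treated against calorie restricted hearts, where 8.98% of all sets were called higher. In calorie restricted against ad libitum hearts 8 fell (3.57% of all sets were called lower), and against wild type hearts all 9 fell (7.19% of all sets). In leptin treated against ad libitum hearts 2 rose, the sets of H2-Aa and H2-Eb1 described above (0.554% of all sets). None was called by limma in leptin treated against wild type hearts (0.0221% of all sets were called), where 0 of the 9 had an unadjusted p under 0.05. None was called in ad libitum ob/ob against wild type hearts either (0.293% of all sets), where 8 of the 9 and 11.8% of all sets had an unadjusted p under 0.05.

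The 3 tested sets of H2-Aa gave log2 differences of 3.09, 2.57 and 2.67 for leptin against calorie restriction, and the 3 of H2-Ab1 gave 1.71, 1.81 and 2.92. The set of H2-Ab1 with the value of 2.92 was dim in calorie restricted hearts, at 8.47, 6.35, 7.18, 5.61 and 9.99. Its signals were 101, 92.1, 88.8, 55.6 and 125 in leptin treated hearts, 45.5, 8.99, 55.7 and 57.1 in ad libitum hearts, and 75.6, 87.8, 64.9 and 168 in wild type hearts. The ad libitum replicate 2 thus read like a calorie restricted array on this set, while on the brightest set of the same gene it was at 110 against 56.6 to 108 in the calorie restricted group. The fourth set of H2-Aa was under the filter and had the same order of means, 34.4 in leptin treated, 4.88 in calorie restricted, 15.1 in ad libitum and 34.9 in wild type hearts. Several of these sets carry the manufacturer's mark for probes shared with other transcripts, and class II genes are close relatives, so part of a set's signal may come from another class II gene.

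**Figure D3:**
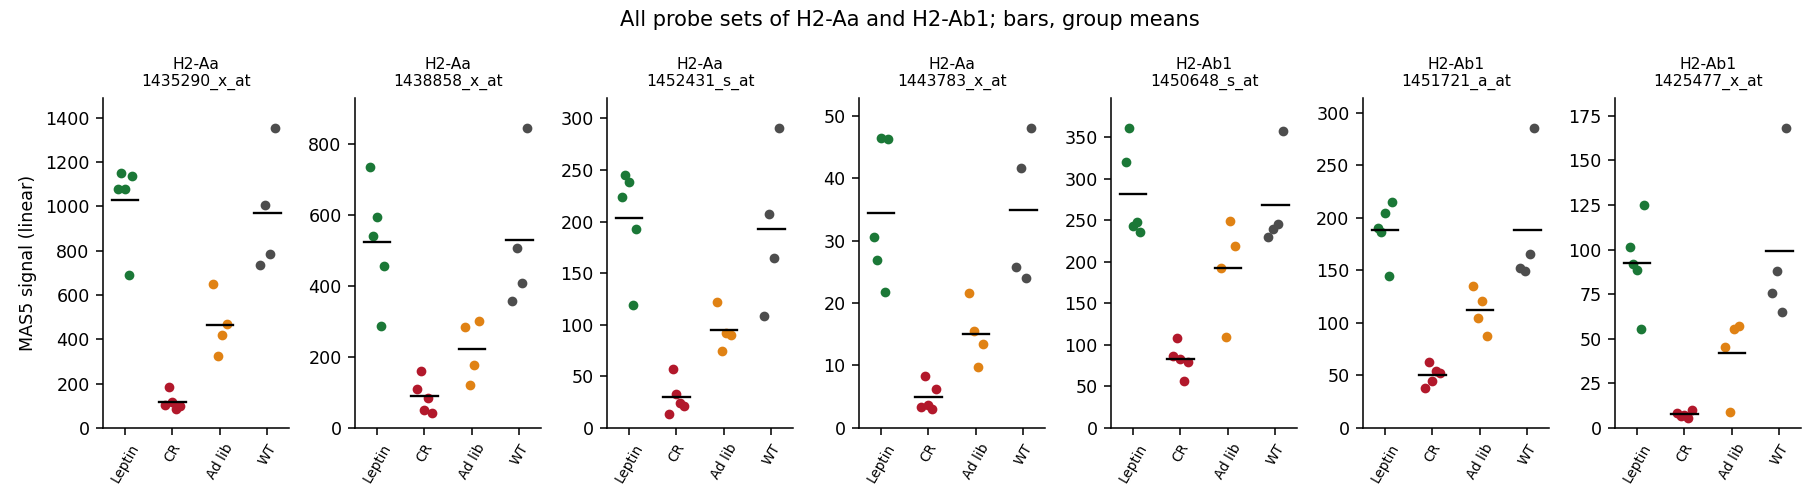
Signal on each array (MAS5 units, linear axis from 0, scaled separately in each panel) for the 4 probe sets of H2-Aa and the 3 of H2-Ab1, by group. Points are arrays and bars are group means. Calorie restricted hearts have the lowest mean in all 7 panels, from 4.88 to 118 units, and leptin treated and wild type hearts have the highest.

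The members also varied together from mouse to mouse within a group. Wild type replicate 4 was the highest and wild type replicate 1 the lowest of its group for all 5 tested members. Among calorie restricted arrays replicate 2 was highest for 4 members, among ad libitum arrays replicate 1 was highest and replicate 2 lowest for 4, and leptin replicate 4 was the lowest for 3. After each group mean was subtracted, the 6 pairs among H2-Aa, H2-Ab1, H2-Eb1 and Cd74 had Pearson correlations of 0.36 to 0.94 over the 18 arrays. With the group differences included the same pairs had 0.89 to 0.99. Markers of macrophages, of leukocytes and of atrial tissue covaried with the members within groups as well. Over the 5 tested members the same correlation was 0.29 to 0.83 with C1qa and 0.35 to 0.82 with Csf1r (both of macrophages), 0.28 to 0.62 with the leukocyte gene Ptprc and 0.13 to 0.64 with the atrial Myl7. For H2-Aa these were 0.83, 0.76, 0.53 and 0.64. The arrays share normalization and tissue sampling, so these are descriptions of common variation.

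Genes outside the class II pathway followed the same pattern over the arrays. The measure of likeness was the Pearson correlation over 18 arrays with the mean of the centred log2 values of H2-Aa, H2-Ab1, H2-Eb1 and Cd74. The 8 genes most like it were Lyz1 (0.96), Tmsb10 (0.96), B2m (0.96), Rtp4 (0.96), Ly6e (0.96), Dpt (0.96), AW112010 (0.95) and Lyz2 (0.95), where the median of all tested genes was -0.03. Lyz1 and Lyz2 are lysozymes, Lyz2 that of myeloid cells, B2m is the light chain of class I, Rtp4 and Ly6e are interferon-inducible, Tmsb10 binds actin monomers and Dpt is a matrix protein of fibroblasts. Lyz1 averaged 1636 ± 209 in leptin treated, 781 ± 121 in calorie restricted, 1115 ± 117 in ad libitum and 1533 ± 391 in wild type hearts (SD). Rtp4 averaged 190 ± 23.4 in leptin treated, 68.3 ± 20.4 in calorie restricted, 135 ± 46.1 in ad libitum and 172 ± 38.2 in wild type hearts (SD). With each group mean subtracted, the correlation was still 0.86 for Rtp4, 0.86 for Lyz2, 0.84 for B2m and 0.84 for Lyz1, and 0.44 for AW112010. The genes ranked highest on that measure were Rtp4, Lyz2, Glmp, Fndc1, B2m, C1qc, Lyz1 and Ctss.

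Promoters of 4 of the 7 members were matched in RefSeq (GRCm38.p6), and those of H2-Aa and H2-Eb1, which had the lowest adjusted p-values in leptin against calorie restriction, are shown because they carry the X and Y boxes side by side. The windows are the 250 bases before the start on the gene's strand, chr17:34287824-34288073 (minus strand) for H2-Aa and chr17:34305617-34305866 (plus strand) for H2-Eb1. Capitals mark the X box core searched as CTNGNAAC and the Y box core searched as TGATTGG, on both strands. The letters searched were chosen after these promoters had been read.
H2-Aa: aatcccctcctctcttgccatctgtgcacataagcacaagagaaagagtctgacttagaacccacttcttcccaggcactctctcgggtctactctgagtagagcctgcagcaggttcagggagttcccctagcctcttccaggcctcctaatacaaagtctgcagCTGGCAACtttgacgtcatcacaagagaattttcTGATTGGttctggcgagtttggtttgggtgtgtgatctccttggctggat
H2-Eb1: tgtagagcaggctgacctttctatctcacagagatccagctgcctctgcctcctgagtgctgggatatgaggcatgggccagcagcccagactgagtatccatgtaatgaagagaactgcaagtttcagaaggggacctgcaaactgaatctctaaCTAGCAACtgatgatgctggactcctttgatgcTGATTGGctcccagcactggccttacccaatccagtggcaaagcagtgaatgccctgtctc

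In H2-Aa the X core began 84 bases and the Y core 50 bases before the start, with 26 bases between them, and in H2-Eb1 they began 94 and 61 bases before it, with 25 between. H2-DMb1 held both as well, 97 and 63 bases before the start with 26 between. The 2 windows of H2-DMa held neither. Of 32851 RefSeq promoter windows of the same length, 10.9% held the X core, 7.23% the Y core and 0.819% both. An X core followed by a Y core within 40 bases on the gene's strand was found in 16 windows (0.0487%) of 14 genes, and 4 of those genes were H2-Aa, H2-Eb1, H2-DMb1 and H2-Ob. A match in letters is no evidence that a factor was bound in these hearts.

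H2-Ob, which shares this pair, encodes the beta chain of H2-O, the inhibitor of H2-DM. It averaged 4.8 ± 3.4 in leptin treated, 2.1 ± 2.9 in calorie restricted, 3.6 ± 3.6 in ad libitum and 1.7 ± 1.1 in wild type hearts (SD), at or below the pseudocount. H2-Oa, the alpha chain of H2-O, averaged 20.5 ± 6.5, 23.0 ± 5.1, 19.7 ± 5.3 and 28.6 ± 9.8 in the same order. Of 7 other class II chains and ubiquitin ligases of class II with a probe set, only H2-Eb2 and Marchf8 passed the level filter. Neither was called in any comparison. Marchf8, a ligase that lowers surface class II, averaged 180 ± 22.5 in leptin treated, 163 ± 14.97 in calorie restricted, 151 ± 3.2 in ad libitum and 190 ± 19.2 in wild type hearts (SD).

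The RFX, CREB and NF-Y factors are the DNA-binding partners of Ciita. Of the 7 RFX, CREB and NF-Y genes, all tested, none was called in leptin against calorie restriction or in calorie restriction against ad libitum feeding, with medians of -0.05 and -0.02. Rfx5, the RFX subunit mutated in some patients without class II, averaged 95.1 ± 20.8 in leptin treated, 92.6 ± 18.04 in calorie restricted, 88.6 ± 27.9 in ad libitum and 97.3 ± 4.8 in wild type hearts (SD). The only call in this list was Nfyc, an NF-Y subunit, which was higher by 0.29 in calorie restricted than in wild type hearts (adjusted p = 0.0466, limma). That call was lost in 13 of 18 fits with 1 array left out (adjusted p up to 0.129). Of 5 tested genes upstream of Ciita or of co-stimulation, including Spi1, Irf4 and Irf8, none was called in any comparison.

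For this and the later lists, the share of all tested genes called higher in leptin against calorie restriction was 10.4%. The share called lower in calorie restricted hearts was 4.42% against ad libitum and 8.2% against wild type hearts. Of 16 listed genes of the interferon gamma pathway, 11 were tested. In leptin treated against calorie restricted hearts 5 rose and none fell, with a median of 0.35. Those with the smallest p were the GTPases Gbp2 (0.97, adjusted p = 1.33e-04), Iigp1 (0.54, 0.00384) and Igtp (0.40, 0.0128) and the receptor chain Ifngr2 (0.35, 0.0241), by limma. The call of Ifngr2 was lost in 3 of 18 fits with 1 array left out (limma adjusted p up to 0.0684), and those of Gbp2, Iigp1 and Igtp in none. In calorie restricted against ad libitum hearts 3 fell, Igtp (-0.42, adjusted p = 0.0276), Ifngr2 (-0.37, 0.0456) and the kinase Jak1 (-0.42, 0.0465), by limma, with a list median of -0.37. These 3 calls were not stable. With 1 array left out at a time, Ifngr2 was lost in 14 of 18 fits (adjusted p up to 0.139), Jak1 in 11 (up to 0.156) and Igtp in 3, those without ad libitum replicate 1, 3 or 4 (up to 0.0884). Against wild type hearts Gbp2 (-0.80), Gbp3 (-0.94), Jak1 (-0.61) and Ifngr2 (-0.45) fell in calorie restricted hearts, and the call of Gbp3 was lost without wild type replicate 2 (adjusted p = 0.0555, limma). Ifng itself was at the floor of the array, with 7.5 ± 4.8 in leptin treated, 6.7 ± 5.3 in calorie restricted, 7.3 ± 4.6 in ad libitum and 9.0 ± 5.4 in wild type hearts (SD).

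Of the 11 endosomal processing genes, 5 rose in leptin treated against calorie restricted hearts and none fell, with a median of 0.19. Ctss, the protease that makes the last cuts in the invariant chain, averaged 429 ± 73.9 in leptin treated, 229 ± 44.9 in calorie restricted, 307 ± 39.1 in ad libitum and 407 ± 103 in wild type hearts (SD). It was higher by 0.90 with leptin than with calorie restriction (adjusted p = 0.00117, limma). Called as well were Ifi30 (0.70), the thiol reductase of the same compartment, and the proteases Ctsz (0.70) and Lgmn (0.56). In calorie restricted against ad libitum hearts only Lgmn fell (-0.50, adjusted p = 0.0403), and against wild type hearts only Ctss fell (-0.81, adjusted p = 0.00433), by limma. The call of Lgmn was lost in 7 of 18 fits with 1 array left out, among them those without each of the 4 ad libitum arrays (adjusted p = 0.0535 to 0.107), and that of Ctss in none.

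The class I pathway displays peptides made inside the cell. Of 14 tested genes of class I loading and the immunoproteasome, 8 rose in leptin treated against calorie restricted hearts and none fell (median 0.41, lowest value -0.24). Among them were B2m (0.87), Psmb8 (0.72) and Psmb9 (0.70), subunits of the immunoproteasome, and the chaperone Pdia3 (0.57). In calorie restricted against ad libitum hearts 3 of the 14 fell, B2m (-0.63, adjusted p = 0.00736), Psmb9 (-0.59, 0.0138) and Psmb8 (-0.38, 0.0426), by limma. The call of Psmb8 was lost in 12 of 18 fits with 1 array left out and with the mean of its probe sets (adjusted p = 0.471). That of Psmb9 was lost without ad libitum replicate 1 (0.0523) or 3 (0.0585), without both calorie restricted arrays high in atrial transcripts (0.0554) and with the atrial covariate (0.0564). That of B2m held in all 18 and was lost in 1 of 14 other settings (limma adjusted p = 0.0511). Against wild type hearts 8 fell. B2m averaged 2302 ± 192 in leptin treated, 1268 ± 215 in calorie restricted, 1980 ± 407 in ad libitum and 2374 ± 231 in wild type hearts (SD).

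Some of these genes are neighbours. RefSeq places H2-DMa, H2-DMb2, H2-DMb1, Psmb9, Tap1, Psmb8, Tap2, H2-Ob, H2-Ab1, H2-Aa, H2-Eb1 and H2-Eb2 in this order on chromosome 17. Psmb9 and Psmb8 were called in leptin against calorie restriction while the peptide transporter genes beside them were not, Tap1 at 0.41 (limma adjusted p = 0.0739) and Tap2 at 0.20 (0.13), although the difference between these genes was not tested. H2-Eb2, next to H2-Eb1, was at -0.14 (adjusted p = 0.815, limma).

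**Figure D4:**
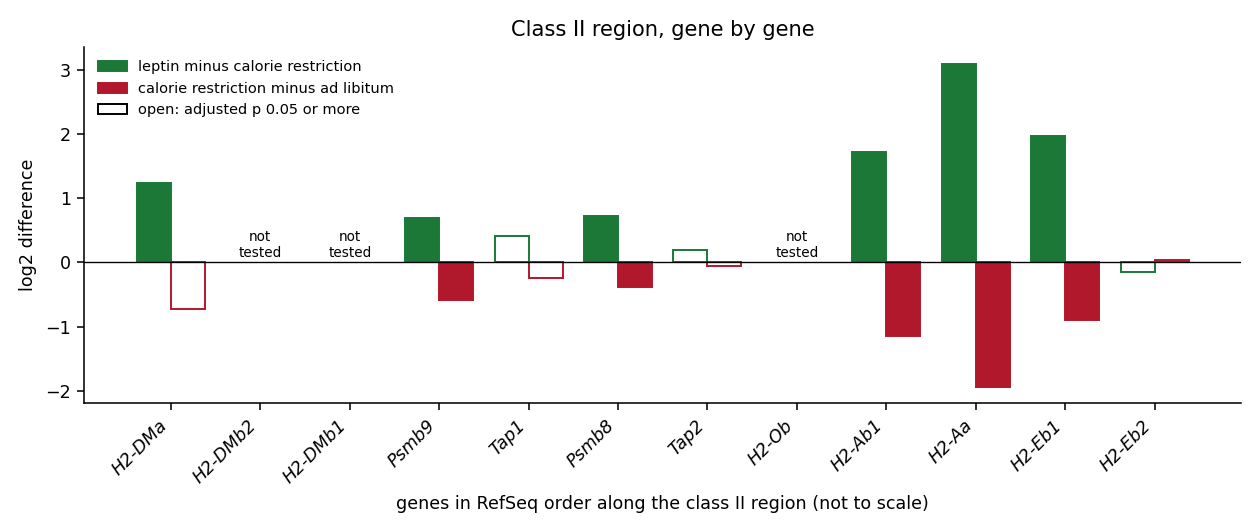
Log2 differences (vertical axis) for leptin against calorie restriction and for calorie restriction against ad libitum feeding, for genes in RefSeq order through the class II region (horizontal axis, not to scale). Filled bars passed an adjusted p of 0.05, and genes without a tested probe set are marked. H2-Ab1, H2-Aa and H2-Eb1 reach 1.71, 3.09 and 1.97 for leptin against calorie restriction, and H2-Eb2 beside them lies at -0.14.

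Pan-leukocyte markers moved with the class II genes. Of 8 such markers, all tested, 7 rose in leptin treated against calorie restricted hearts (median 1.03), where 10.4% of all genes were called higher. In calorie restricted hearts 4 fell against ad libitum (median -0.50) and 7 against wild type hearts (median -0.99). The shares of all genes called lower were 4.42% and 8.2%. The 4 calls against ad libitum hearts were not stable. With 1 array left out at a time, Cd52 was lost in 14 of 18 fits, Ptprc in 6, Tyrobp in 5 and Laptm5 in 4. The summed signal of the 8 markers was 898 to 1369 in leptin treated, 577 to 683 in calorie restricted, 715 to 924 in ad libitum and 859 to 1405 in wild type hearts. Ptprc, the common leukocyte antigen CD45, averaged 93.0 ± 7.3 in leptin treated, 39.9 ± 9.9 in calorie restricted, 62.4 ± 12.8 in ad libitum and 88.7 ± 19.3 in wild type hearts (SD). No marker of this list was called in the ad libitum comparisons with leptin treated or wild type hearts. All 8 were nonetheless lower in ad libitum than in wild type hearts (median -0.47), 5 with an unadjusted limma p under 0.05, as had 11.5% of all genes. In leptin treated against ad libitum hearts all 8 were higher (median 0.51), 6 with an unadjusted limma p under 0.05, as had 15.2% of all genes.

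Of 20 listed macrophage symbols 18 had a probe set and 14 were tested. Of these, 11 rose in leptin treated against calorie restricted hearts (median 0.75), where 10.4% of all genes were called higher. In calorie restricted hearts 4 fell against ad libitum (median -0.49) and 9 against wild type hearts (median -0.81). The shares of all genes called lower were 4.42% and 8.2%. The 14 values ran from -0.34 to 1.23 for leptin against calorie restriction, 1 of them negative. For calorie restriction against ad libitum feeding they ran from -0.75 to 0.25, 2 of them positive. Csf1r, the receptor that macrophages need to survive, averaged 912 ± 98.2 in leptin treated, 575 ± 67.3 in calorie restricted, 763 ± 54.1 in ad libitum and 1037 ± 169 in wild type hearts (SD). The summed signal of the 18 markers was 4059 to 5554 in leptin treated, 2562 to 3549 in calorie restricted, 3559 to 4536 in ad libitum and 3901 to 6627 in wild type hearts. Among the complement genes of macrophages, C1qb differed by 1.23 and C1qa by 0.96 between leptin and calorie restriction. The 4 macrophage calls for calorie restriction against ad libitum feeding were not stable with 1 array left out. C1qa was lost in 13 of 18 fits, Csf1r in 7, Adgre1 in 5 and C1qb in 3.

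Few markers of the other cells with class II passed the filter. Of 10 dendritic cell markers 3 were tested and none was called in any comparison. Itgax, the dendritic cell integrin CD11c, averaged 17.8 ± 7.1 in leptin treated, 15.7 ± 9.7 in calorie restricted, 19.4 ± 5.6 in ad libitum and 17.96 ± 3.1 in wild type hearts (SD), and Flt3 averaged 58.5 ± 9.8, 68.7 ± 44.3, 59.4 ± 18.7 and 60.6 ± 44.7 in the same order. The B cell receptor chain Cd79a averaged 20.6 to 25.4 and the T cell receptor chain Cd3e 8.7 to 10.6 over the 4 groups. Of 3 tested B cell markers Ighm fell in calorie restricted hearts against ad libitum (-0.70, adjusted p = 0.0102, limma) and wild type hearts (-0.56, 0.021), while leptin against calorie restriction gave 0.41 (adjusted p = 0.0619, limma). The 3 B cell markers did not move together, with values from -0.64 to 0.41 for leptin against calorie restriction. Of 2 tested T cell markers Thy1, which fibroblasts can also carry, moved with the class II genes. It rose in leptin treated against calorie restricted hearts (0.74, adjusted p = 1.31e-04), and it fell in calorie restricted hearts against ad libitum (-0.53, 0.00626) and wild type hearts (-0.87, 7.85e-05), by limma. The other tested T cell marker went the other way, at -0.18, 0.05 and 0.22 in the same order, and was not called. The summed signal of the 9 dendritic markers was 235 to 304 in leptin treated, 189 to 416 in calorie restricted, 253 to 287 in ad libitum and 208 to 302 in wild type hearts. That of the 8 B cell markers was 230 to 291, 208 to 333, 290 to 343 and 242 to 394 in the same order. That of the 7 T cell markers was 182 to 233, 139 to 202, 183 to 211 and 181 to 214. The mean signal lay at or below the pseudocount for 1 of the 9 dendritic, 0 of the 8 B cell and 1 of the 7 T cell markers. Fibroblast markers moved as well, with 5 of 8 higher in leptin treated than in calorie restricted hearts (median 0.81), led by Col3a1 at 2.71. Of 9 endothelial markers 4 rose in the same comparison (median 0.41). The part of these cell types in the class II values was not tested.

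Between leptin and calorie restriction the difference of 4 of the 5 class II members from the mean of the leukocyte markers passed a test of its own, and that of H2-DMa did not. This comparison was chosen after the data had been seen. On each array the mean log2 value of the 8 pan-leukocyte markers was taken from that of the member, and the groups were compared by an exact two-sided permutation test over arrays. The test was run for 5 members, 2 marker lists and 6 pairs of groups, 60 tests in all, with Benjamini-Hochberg adjustment over them. For leptin against calorie restriction the markers' mean differed by 0.96, and beyond it H2-Aa differed by 2.13, Cd74 by 1.20, H2-Eb1 by 1.01 and H2-Ab1 by 0.75. Each of these 4 had an exact p of 0.00794, the smallest that 252 regroupings allow, and an adjusted value of 0.0238. In each of the 4 the difference was higher on 5 of 5 leptin treated arrays than on all calorie restricted arrays. For H2-DMa the value beyond the markers was 0.28 and did not pass (exact p = 0.468, adjusted 0.585).

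For calorie restriction against ad libitum feeding the markers' mean was -0.46. Beyond it the differences were -1.48 for H2-Aa (exact adjusted p = 0.0238), -0.88 for Cd74 (0.0381), -0.68 for H2-Ab1 (0.0381), -0.43 for H2-Eb1 (0.0493) and -0.27 for H2-DMa (0.657). For leptin against ad libitum feeding H2-Aa (0.65, exact adjusted p = 0.0493) and H2-Eb1 (0.58, 0.0381) differed beyond the markers and the other 3 did not pass. For ad libitum ob/ob against wild type none passed. The lowest adjusted value was 0.0536, for Cd74, whose exact p of 0.0286 was the smallest that 70 regroupings allow. The 2 groups were already fully apart at that value, so the lack of a pass does not show that Cd74 followed the markers. With the 14 macrophage markers in place of the pan-leukocyte markers, leptin against calorie restriction gave 2.43 for H2-Aa, 1.50 for Cd74, 1.31 for H2-Eb1 and 1.05 for H2-Ab1 (exact adjusted p = 0.0238 each) and 0.57 for H2-DMa (0.126). On the same markers, leptin against ad libitum feeding gave 0.89 for H2-Aa and 0.82 for H2-Eb1 (exact adjusted p = 0.0238 each) and 0.56 for Cd74 (0.0493). H2-Ab1 and H2-DMa did not pass there, so the result for Cd74 depended on the marker list. The part of cell number in these values was not tested.

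**Figure D5:**
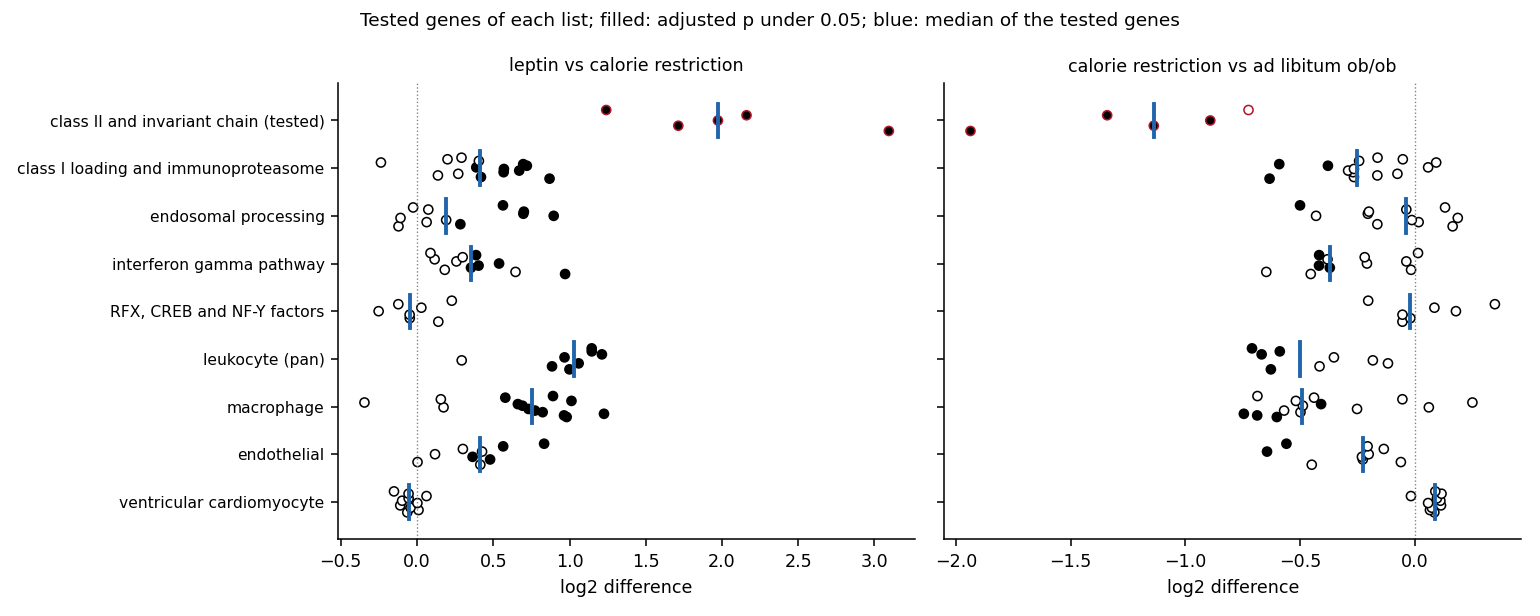
Log2 differences (horizontal axis) of the tested genes of each list, for leptin against calorie restriction on the left and calorie restriction against ad libitum feeding on the right. Points are genes, filled where the adjusted p was under 0.05, and blue bars are list medians. On the left the median of the tested members lies at 1.97, against 1.03 for pan-leukocyte and 0.75 for macrophage markers and -0.06 for ventricular cardiomyocyte markers.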

How the data were processed

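Ventricular RNA of 18 mice was measured on 1 array each. The deposited table holds linear intensities per probe set, which the authors made with MAS5, per the submitters' processing notes. No source used here names its version or settings, and no detection calls were used. Each array has the same mean over the probe sets left after trimming 2% at either end, so differences in total RNA cannot be read. Of 45101 probe sets, 64 controls, 932 with several gene symbols and 9160 not listed in the platform annotation were left out of the gene values.

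The brightest single-symbol set stood for each of 18193 genes. Values were log2(signal + 5.13), the pseudocount being the 20th percentile of all signals. Genes with a mean under the 40th percentile of genes (5.18) were left out. Groups followed the labels. One limma fit (limma 3.58.1, R 4.3.3) over 18 arrays with a coefficient per group gave 6 two-sided contrasts, with Benjamini-Hochberg adjustment over the 10916 tested genes. All adjusted p-values of genes come from limma unless an exact permutation test is named. Ciita was read from a fit of the same form over the 18193 genes without the level filter. Shared probe sets were read from a separate fit over all annotated probe sets, also without that filter. The labels do not say how samples relate to cages or cohorts, so p-values reflect only the sample-to-sample spread, and the number of arrays limits the precision. The fit was tested on simulated data with known changes.

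The members and gene lists were chosen with earlier results of these data known. Named genes were the members, called genes of the pathway lists (at most 4 per list and contrast by smallest p), 10 fixed level checks (1 is not reported here), and the 8 genes most like the members. Related chains, neighbours and markers were named from their lists to show levels. Alternatives covered pseudocount, filter, normalization, variance model, samples, probe set rule, array weights, replicate block, atrial signal and each array left out. Replicate numbers were not taken to pair the samples. Of 25 same-numbered pairs, 2 had deviations correlated above 0.1, the highest being 0.44 for ad libitum and wild type replicate 4. These values cover same-numbered pairs alone, so they cannot show whether such pairs are more alike than others. Symbols and promoters came from RefSeq (GRCm38.p6).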

Additional observations from a re-analysis of the deposited data

Results flagged for a closer look

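Of 64 tests of whether the highest or lowest array of a group stands far from the others, 4 did, where chance gives about 1 in 20. The H2-Aa signal of leptin treated replicate 4 was 690, against 1077 for the nearest and 1152 for the highest array of its group. H2-Ab1 in wild type replicate 4 was 357 on its brightest probe set, against 246 for the nearest array. On a second H2-Ab1 set the same array read 285, against 165 for the nearest. The brighter probe set shared by H2-DMb2 and H2-DMb1 read 6.76 on ad libitum replicate 4, against 16.5 for the nearest array.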

How the results depend on the processing

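The count of members called was recomputed under 32 other settings for each of the 6 comparisons. It stayed at 4 in all 32 for calorie restriction against ad libitum feeding, at 4 or 5 for leptin against calorie restriction and for calorie restriction against wild type, and at 0 for leptin against wild type. For ad libitum ob/ob against wild type it was 0 as reported, 2 with genes under the 60th percentile left out, 2 with a trended variance and 2 with array weights, and 0 to 1 with each array left out. For leptin against ad libitum feeding it was 2 as reported, 1 with no filter on low values, 1 with the mean of all probe sets of a gene, 0 with the replicate block and 0 to 3 with each array left out. The cause was not tested in any of these, and the block changed no other member count. The count of all genes called for ad libitum ob/ob against wild type ran from 6 to 130 over the settings, against 41 as reported, for leptin against ad libitum feeding from 48 to 203 against 114, and for leptin against wild type from 1 to 9 against 2. For calorie restriction against ad libitum feeding it ran from 381 to 1028 against 868, for calorie restriction against wild type from 1016 to 2060 against 1627, and for leptin against calorie restriction from 1186 to 2098 against 1952.

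Of 508 recomputed values of members that were called, 496 kept call and direction, 12 lost the call and 0 reversed. Of 2565 values of other called genes, 2279 kept call and direction, 286 lost the call and 0 reversed. The H2-DMa call against wild type was also lost in a fit of those 2 groups alone (adjusted p = 0.0848, limma). Only values of leptin against wild type changed sign, none of them called. With atrial signal as a covariate Cd74 was at 0.022. With each array left out the value of H2-Aa ran from -0.018 to 0.28, that of H2-Ab1 from -0.024 to 0.21, that of H2-Eb1 from -0.057 to 0.29 and that of Cd74 from -0.22 to 0.086. Members near the floor, Ciita, H2-DMa and the shared H2-DMb sets, are limited by low signal.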
